A study of Sus scrofa with 2 samples.

Results

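The integrin subunits of the endometrium were described in 2 Yorkshire pigs on day 18 of pregnancy (YK18), with 1 RNA-seq library per pig. The 10 genes were listed by symbol, with earlier results of these data known. They were the alpha chains ITGAV, ITGA1, ITGA4, ITGA5 and ITGA6 and the beta chains ITGB1, ITGB3, ITGB5, ITGB6 and ITGB8. A gene was the sum of the listed transcripts whose RefSeq accession carries its symbol in the annotation of Sscrofa11.1. Of the 10 subunits, 8 had a listed transcript, among 11063 gene symbols with one, and each of the 8 had 1 transcript. There was 1 condition, YK18, and both pigs were artificially inseminated sows from 1 commercial herd whose uterine horns were flushed before sampling. The samples were pieces of endometrium, not separated cells. In such samples, fewer cells of a type and less RNA per cell cannot be told apart.

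Integrins are receptors in the cell membrane that join the extracellular matrix, or a ligand on another cell, to the cytoskeleton. Each receptor is a pair of 1 alpha and 1 beta chain, and the pair decides which ligand is bound. Pairs that contain ITGAV, and the pair of ITGA5 with ITGB1, recognise the RGD motif (arginine, glycine, aspartate) of ligands such as osteopontin, fibronectin and vitronectin. The pig has a noninvasive placenta in which the trophectoderm attaches to the uterine luminal epithelium, and integrins are known as part of that attachment. An RNA level does not show that a pair was formed or reached the cell surface.

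Of the 10 subunits, 7 were above 0 RPKM (reads per kilobase of transcript, scaled to 1000000 reads) in both pigs, 3 of the 5 alpha chains and 4 of the 5 beta chains. Over all 11063 matched genes, 63.1% were above 0 in both. The 7 were also at 1 RPKM or more in both, as were 54.7% of matched genes. ITGB8 (NM_001097424.1) was listed at 0 in both libraries, as were 26.6% of matched genes. EEF1A1, a translation factor that most cells use, was also listed at 0, so the value of ITGB8 is given only as listed at 0. No listed transcript was matched to ITGA1 or ITGA6. The annotation holds 1 mRNA accession for each of them, and their levels were not analysed here. It holds 8 mRNA accessions for ITGB6, 6 for ITGAV, 5 for ITGB8, 3 for ITGB1 and 2 for ITGA4. Only 1 of these was listed for each gene. Each of these levels is thus that of 1 transcript and may not be the level of the whole gene.

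In RPKM, reads are scaled by transcript length and by library size. The steps between low values gave 7466979 reads for replicate 1 and 7023108 for replicate 2. They also gave, for each transcript, the smallest length and the fewest reads that fit both values. For the 7 subunits above 0 this length ran from 93 to 304 nt, with a median of 142 nt. Reads below are these fewest reads, of which the true reads are a whole multiple that may be 1. A small number of them therefore does not settle whether a value rests on few reads. The mRNAs of integrin chains are many times longer than these lengths, and the length by which the deposited values were divided is not given in the sources used here. All levels below are RPKM as deposited, per length, and every order or ratio between genes depends on these lengths. Reads are not compared between genes, because the multiple may differ.

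ITGAV, the alpha chain shared by most RGD-binding pairs, was the highest of the subunits. It was at 8750 and 8275 RPKM in replicates 1 and 2, and the mean was 8512 ± 336.0 RPKM (SD, n = 2). These values came from 8559 and 7613 reads of NM_001083932.1. Its percentile among the 6985 matched genes above 0 in both libraries was 99.6 and 99.5 in replicates 1 and 2. The median of these genes was 33.3 and 36.7 RPKM in replicates 1 and 2. The annotation places a transcribed pseudogene, LOC110256917, over the ITGAV gene and 2 lncRNA genes, LOC110256934 and LOC110256935, over ITGB6. How reads shared with them were counted is not given in the sources used here.

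The other measured alpha chains of the 10 subunits were far below ITGAV. ITGA5, which binds fibronectin as a pair with ITGB1, was at 865 and 890 RPKM in replicates 1 and 2 (mean 877 ± 17.7 RPKM, SD, n = 2). The pigs lay close together for this gene, with 962 and 931 reads of XM_001925252.5. ITGA4, a receptor chain for VCAM1 and fibronectin that is well known from leukocytes, was at 381.6 and 614 RPKM in replicates 1 and 2. Its mean was 498 ± 164 RPKM (SD, n = 2), so the pigs lay farther apart than for ITGA5. Of the 3 measured alpha chains added together, ITGAV made up 87.5% of the RPKM in replicate 1 and 84.6% in replicate 2. ITGA4 was listed as XM_003133517.2. Its share was 3.82% in replicate 1 and 6.28% in replicate 2.

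Among the beta chains ITGB1, the common partner of many alpha chains, was the highest. It was at 1278 and 1267 RPKM in replicates 1 and 2 (mean 1272 ± 8.44 RPKM, SD, n = 2). It was listed as NM_213968.1, with 2272 and 2117 reads, and had the ratio between the pigs closest to 1 among the 7 subunits. ITGB5, a partner of ITGAV in a vitronectin receptor, was at 599 and 534 RPKM in replicates 1 and 2 (mean 567 ± 45.6 RPKM, SD, n = 2), from 635 and 533 reads of NM_001246669.1. ITGB3, the beta chain of the vitronectin receptor with ITGAV and of the platelet fibrinogen receptor with ITGA2B, was at 630.4 and 341.4 RPKM in replicates 1 and 2. Its mean was 486 ± 204 RPKM (SD, n = 2), the widest spread relative to the mean among the 7, and it rested on 1431 and 729 reads of NM_214002.1. ITGB6, an epithelial chain that pairs with ITGAV and binds the latency peptide of TGF beta, was the lowest of those above 0. It was at 76.8 and 89.4 RPKM in replicates 1 and 2, from 74 and 81 reads of NM_001097423.1, with a mean of 83.1 ± 8.90 RPKM (SD, n = 2). Its percentile by RPKM was 60.0 and 61.2 in replicates 1 and 2. On that scale, which depends on the lengths, it lay above the median of matched genes above 0 in both libraries.

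**Figure D1:**
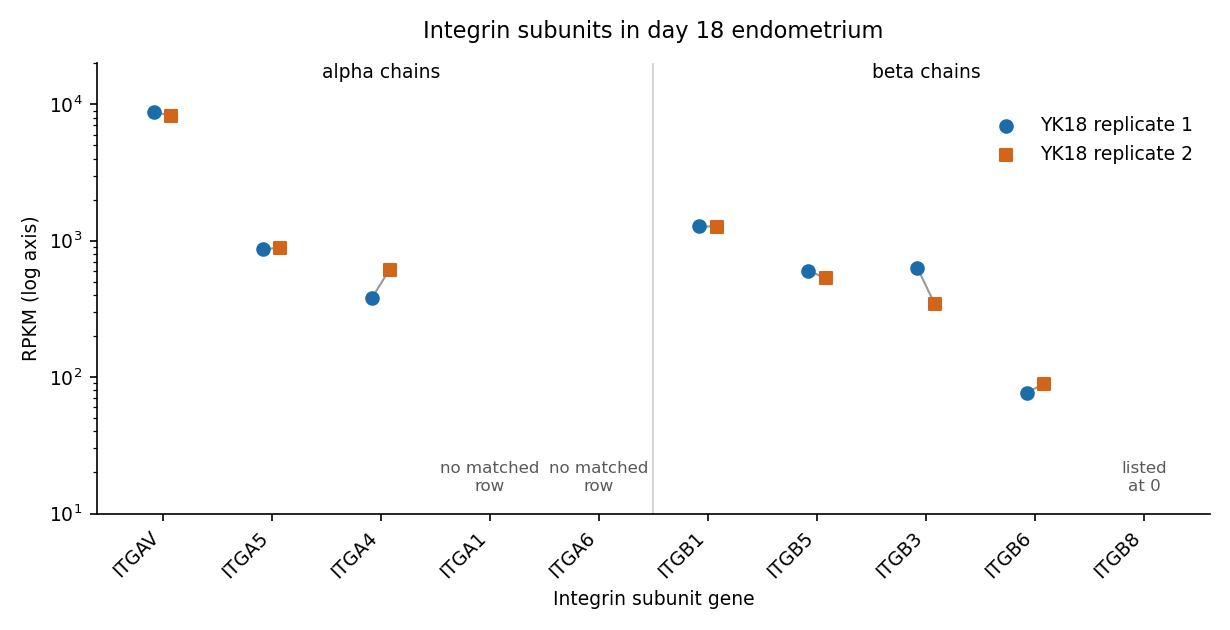
RPKM of each integrin subunit gene (log axis) in the YK18 libraries, with alpha chains on the left and beta chains on the right; circles are replicate 1, squares replicate 2, and a line joins the pigs. ITGAV is highest at 8750 and 8275 RPKM, ITGB6 is lowest of those above 0 at 76.8 and 89.4 RPKM, and ITGA4 and ITGB3 differ most between the pigs.

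By RPKM, and so with the same dependence on lengths, the other 5 subunits also lay in the upper part of the matched genes above 0. ITGB1 was at percentiles 94.6 and 94.4 in replicates 1 and 2, and ITGA5 at 91.8 and 91.9. ITGB5 was at 88.3 and 86.9. ITGA4 was at 82.7 and 88.3 and ITGB3 at 88.9 and 80.8, so their places differed more between the pigs than those of the others.

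By mean RPKM the order was ITGAV, ITGB1, ITGA5, ITGB5, ITGA4, ITGB3 and ITGB6. ITGAV was 6.69 times the next gene, ITGB1. The pigs' values of ITGAV, ITGB1 and ITGA5 did not overlap with those of the next gene in the order, and neither did those of ITGB3 and ITGB6. The values of ITGB5, ITGA4 and ITGB3 overlapped, so no order among these 3 was resolved. ITGB3 was 4th in replicate 1 and 6th in replicate 2, and ITGA4 was 6th in replicate 1 and 4th in replicate 2.

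The possible receptors were read from the chains that were measured. Of 9 pairs known to form between the 10 subunits, 6 had both chains at 1 RPKM or more in both pigs. These were ITGAV with ITGB1, ITGB3, ITGB5 and ITGB6, and ITGB1 with ITGA5 and ITGA4. Of the 6 RGD-binding pairs 5 were thus measured, and the pair of ITGAV with ITGB8 was not, because ITGB8 was listed at 0. The collagen receptor of ITGA1 with ITGB1 and the laminin receptor of ITGA6 with ITGB1 had only ITGB1 measured. For these 2 pairs no statement can be made about the alpha chain.

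In every measured pair with ITGAV the beta chain was the lower chain. ITGAV was 6.84 times ITGB1 in replicate 1 and 6.53 times in replicate 2. It was 14.6 times ITGB5 in replicate 1 and 15.5 times in replicate 2. Against ITGB3 the ratio was 13.9 in replicate 1 and 24.2 in replicate 2, so among the pairs with ITGAV this ratio differed most between the pigs. Against ITGB6 it was 113.9 in replicate 1 and 92.6 in replicate 2. ITGAV alone was also above the 4 measured beta chains summed, by 3.39 times in replicate 1 and 3.71 times in replicate 2. In the pairs with ITGB1 as partner of ITGA5 or ITGA4 the alpha chain was the lower one. ITGA5 was 0.676 of ITGB1 in replicate 1 and 0.702 in replicate 2, and ITGA4 was 0.298 and 0.485 of it. These ratios are between RPKM values of different genes. They hold only on that scale and with the lengths behind the deposited values.

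**Figure D2:**
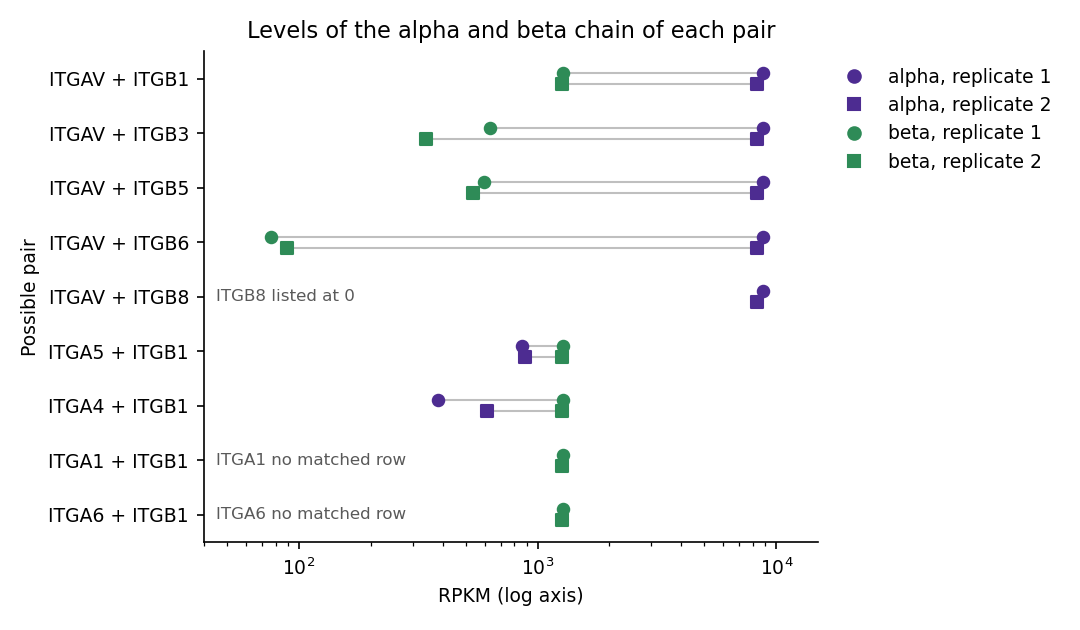
RPKM (log axis) of the alpha chain (purple) and the beta chain (green) of 9 possible integrin pairs, with circles for replicate 1 and squares for replicate 2 and a line joining the chains of a pair in each pig. ITGAV lies above its beta chain in all 4 measured pairs, by 6.53 to 113.9 times, while ITGA5 and ITGA4 lie below ITGB1.

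As a share of the 4 measured beta chains, ITGB1 made up 49.5% of their RPKM in replicate 1 and 56.7% in replicate 2. ITGB3 held 24.4% in replicate 1 and 15.3% in replicate 2. ITGB5 held 23.2% and 23.9%, and ITGB6 held 2.97% and 4.01%. The share of ITGB3 was the one that differed most between the pigs.

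The pigs were compared with each other on the scale log2(RPKM + 1), with no test, because 1 library per pig gives no error within a pig. None of the 7 subunits differed 2-fold between the libraries. Of the 6474 matched genes with a mean of at least 1 RPKM, 10.6% did, 7.48% higher in replicate 2 and 3.17% higher in replicate 1. At 1.5-fold, a threshold chosen after the values were seen, 2 of the 7 subunits differed, ITGA4 and ITGB3, against 23.5% of matched genes. Above a mean of 100 RPKM, a limit also chosen after the values were seen, they were 2 of 6 subunits, against 7.57% of matched genes at that level. ITGA4 had a log2 ratio (replicate 2 over 1) of 0.68 and ITGB3 one of -0.88. The ratios of the other 5 lay between these, at -0.16 for ITGB5, -0.08 for ITGAV, -0.01 for ITGB1, 0.04 for ITGA5 and 0.22 for ITGB6. The median over the 7 subunits was -0.01, beside 0.07 over all matched genes. Of the 7, 3 were higher in replicate 2 and 4 in replicate 1.

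**Figure D3:**
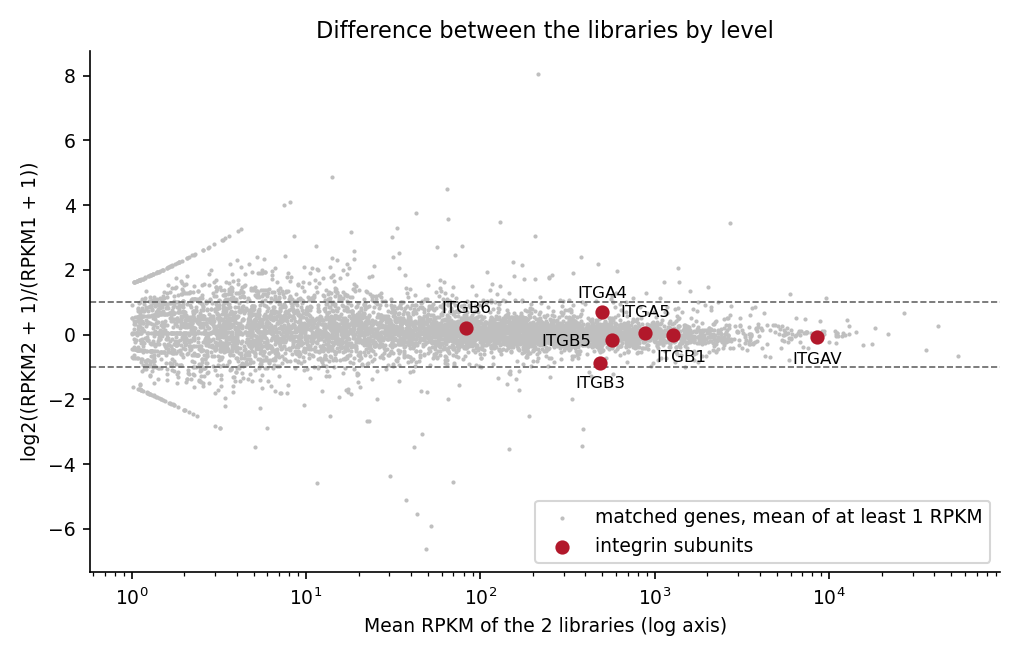
Difference between replicate 2 and replicate 1 in log2(RPKM + 1) against the mean RPKM of both libraries (log axis) for 6474 matched genes (grey) and the 7 integrin subunits above 0 (red); dashed lines mark a 2-fold difference. All 7 subunits lie inside the dashed lines, with ITGB3 (-0.88) nearest to the lower and ITGA4 (0.68) nearest to the upper.

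Counting error was smaller than the difference between the pigs for 3 of the 7 subunits. Reads of each gene were scaled to 1000000 reads of the library and divided between the pigs, so a common multiple cancels. The ratio of replicate 2 to 1 was 0.542 for ITGB3 (95% exact interval, Clopper-Pearson, 0.495 to 0.593). ITGA4 rested on 265 reads in replicate 1 and 401 in replicate 2, with a ratio of 1.61 (1.37 to 1.89). ITGAV, with 8559 and 7613 reads, had a narrow interval that also lay off 1, at 0.946 (0.917 to 0.975), although its change was small. The intervals of ITGB1 (0.933 to 1.05), ITGA5 (0.939 to 1.13), ITGB5 (0.794 to 1.003) and ITGB6 (0.839 to 1.62) held 1. An interval off 1 was found for 31.0% of the matched genes with a mean of at least 1 RPKM. These intervals hold counting error alone and take each read as independent, and the spread between pigs is outside them. PCR copies are not separate molecules, so the intervals may be too narrow even for counting error. The intervals use the fewest reads that fit, so more reads would make them narrower.

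**Figure D4:**
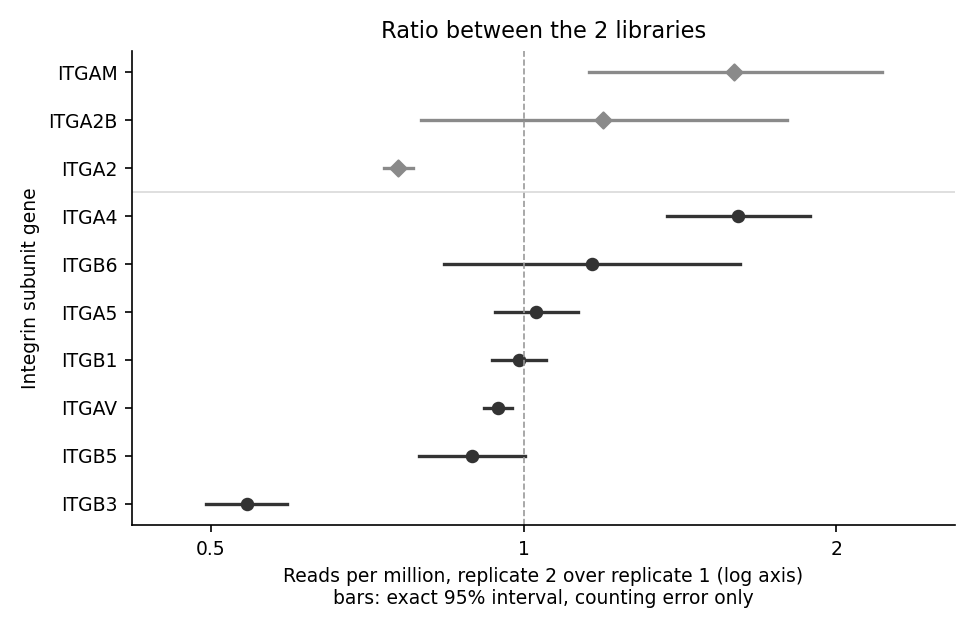
Ratio of reads per 1000000 in replicate 2 over replicate 1 (log axis) for the integrin subunits above 0 in both libraries, with bars for the exact 95% interval of counting error; black circles are the described subunits and grey diamonds other subunits. ITGB3 (0.542) and ITGA2 (0.758) lie below 1 and ITGA4 (1.61) and ITGAM (1.59) above it.

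Markers of cell types were read beside the subunits that differed, with a gene counted as above 0 when it was so in either library. Over all matched genes, 26.6% were listed at 0 in both libraries. For ITGA4, the leukocyte list was given. Of its 10 genes 8 were above 0, 6 of them higher in replicate 2, and CD3D was listed at 0. Their median log2 ratio was 0.16, beside 0.07 over all matched genes with a mean of at least 1 RPKM. Their summed RPKM was 1052 in replicate 1 and 1518 in replicate 2. PTPRC, the pan-leukocyte marker CD45, was at 526 and 846 RPKM in replicates 1 and 2. CD2 was at 275.0 and 365.3 RPKM and CD3E at 67.5 and 127.8 RPKM. CSF1R (104.3 and 110.9 RPKM), NKG7 (25.3 and 26.4 RPKM) and CD14 (14.8 and 17.6 RPKM) differed less. The 2 that were lower in replicate 2 were CD163, a macrophage receptor, at 34.7 and 20.8 RPKM, and MS4A1, a B cell marker, at 4.71 and 3.34 RPKM. The part of leukocytes in the difference of ITGA4 was not tested.

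For ITGB3, the platelet list gave few values. Of its 8 genes 2 were above 0, ITGA2B and GP9, the latter from 1 and 3 reads. Its summed RPKM was 59.8 in replicate 1 and 72.7 in replicate 2, and PPBP, GP1BB and TREML1 were listed at 0. ITGA2B, the platelet partner of ITGB3, was at 59.1 and 70.6 RPKM in replicates 1 and 2. The endothelial list had 5 of 10 genes above 0, with ENG listed at 0, and a summed RPKM of 6539 in replicate 1 and 6210 in replicate 2. The stromal list had 5 of 10 genes above 0 and a summed RPKM of 2804 in replicate 1 and 2432 in replicate 2. The lower sum came from LUM (lumican, a matrix proteoglycan), at 2122 and 1224 RPKM. The other 3 of its 4 genes with a mean of at least 1 RPKM were higher in replicate 2, with THY1 at 452 and 910 RPKM, DCN at 211.0 and 272.5 RPKM and VIM at 19.5 and 24.9 RPKM, and the median log2 ratio was 0.36. The epithelial list had 7 of 10 genes above 0 with a sum of 11977 and 10855 RPKM in replicates 1 and 2. Of the 7, CDH1 (4834 and 3961 RPKM) and KRT18 (1626 and 1064 RPKM) were lower in replicate 2 and the other 5 were higher, with a median log2 ratio of 0.17. EPCAM was at 5106 and 5128 RPKM, while KRT8 was listed at 0. These are markers of epithelium and do not by themselves identify the labelled tissue. Smooth muscle genes summed to 125.0 and 113.3 RPKM over 3 of 9 genes above 0, with ACTA2, CNN1 and MYLK listed at 0. The trophectoderm list had 6 of 10 genes above 0, with GATA3 listed at 0, and summed to 823.8 and 231.0 RPKM in replicates 1 and 2. IFNG was at 682 and 89.1 RPKM of these sums, and the rest of the list summed to 142.2 and 141.9 RPKM. Skeletal muscle genes, 7 of 10 above 0, summed to 461 and 14.9 RPKM in replicates 1 and 2, and TNNT1, TNNT3 and MYL2 were listed at 0. The part of these cell types in the difference of ITGB3 was not tested.

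Of 16 further integrin subunits, 6 had a listed transcript and 4 were above 0 in either library. ITGA2, which with ITGB1 forms a collagen and laminin receptor, was at 8594 and 6513 RPKM in replicates 1 and 2. It was thus beside ITGAV in replicate 1 and below it in replicate 2, with a read ratio of 0.758 (0.734 to 0.783). The myeloid integrin chain ITGAM was at 149.8 and 238.9 RPKM in replicates 1 and 2, and ITGA2B was at the values given above. ITGB2, the beta chain of leukocyte integrins, had 4 reads in replicate 1 and was listed at 0 in replicate 2. ITGAL and ITGB7, which are also leukocyte chains, were listed at 0. ITGA3, ITGA7, ITGA8, ITGA9, ITGA10, ITGA11, ITGAD, ITGAE, ITGAX and ITGB4 had no matched transcript. ITGB4 is the other known partner of ITGA6, so neither chain of that laminin receptor was measured.

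The ligands were described from a list of 40 genes, of which 23 had a listed transcript and 18 were above 0. Among the RGD ligands, SPP1 (osteopontin), FN1 (fibronectin) and MFGE8 were listed at 0 in both pigs, and VTN (vitronectin) had 1 read in replicate 1. These zeros are given only as listed, as for EEF1A1. FBN1 (fibrillin, which also holds an RGD motif) was at 5893 and 5118 RPKM in replicates 1 and 2. EDIL3, a secreted ligand of pairs with ITGAV, was at 63.5 and 96.7 RPKM. The ligand genes THBS1 and TNC were also above 0 in both pigs. THBS1 was at 845 and 1517 RPKM and TNC at 30.5 and 53.1 RPKM in replicates 1 and 2. TGFB1, whose latency peptide is bound by ITGAV with ITGB6 or ITGB8, was at 150.1 and 177.9 RPKM in replicates 1 and 2. VCAM1, the counter-receptor of ITGA4 with ITGB1, was at 1345 and 2539 RPKM in replicates 1 and 2, with a read ratio of 1.89 (1.81 to 1.97). Both VCAM1 and ITGA4 were thus higher in replicate 2.

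Ligands of collagen and laminin receptors were COL3A1, at 67098 and 42857 RPKM, LAMC1, at 2625 and 1847 RPKM, and LAMA3, at 948 and 1653 RPKM in replicates 1 and 2. COL1A2 had 1 read in replicate 1 and LAMB1 had 4 reads in replicate 2. ADAM9, a membrane protease that integrins bind, was at 1901 and 2514 RPKM. Of the 16 ligand genes with a mean of at least 1 RPKM, 2 were 2-fold higher in replicate 2, against 7.48% of matched genes. These 2 were LAMB1 and FGG (a fibrinogen chain). Both were listed at 0 in replicate 1, and LAMB1 was at 3.41 and FGG at 2.40 RPKM in replicate 2. The fewest reads that fit these values were 4 for LAMB1 and 3 for FGG. At 1.5-fold, 9 were higher in replicate 2 and 1, COL3A1, in replicate 1, against 15.6% and 7.92% of matched genes. The median log2 ratio of the 16 was 0.64, beside 0.07 over all matched genes. The same threshold found 1 of the 7 described subunits in each direction.

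**Figure D5:**
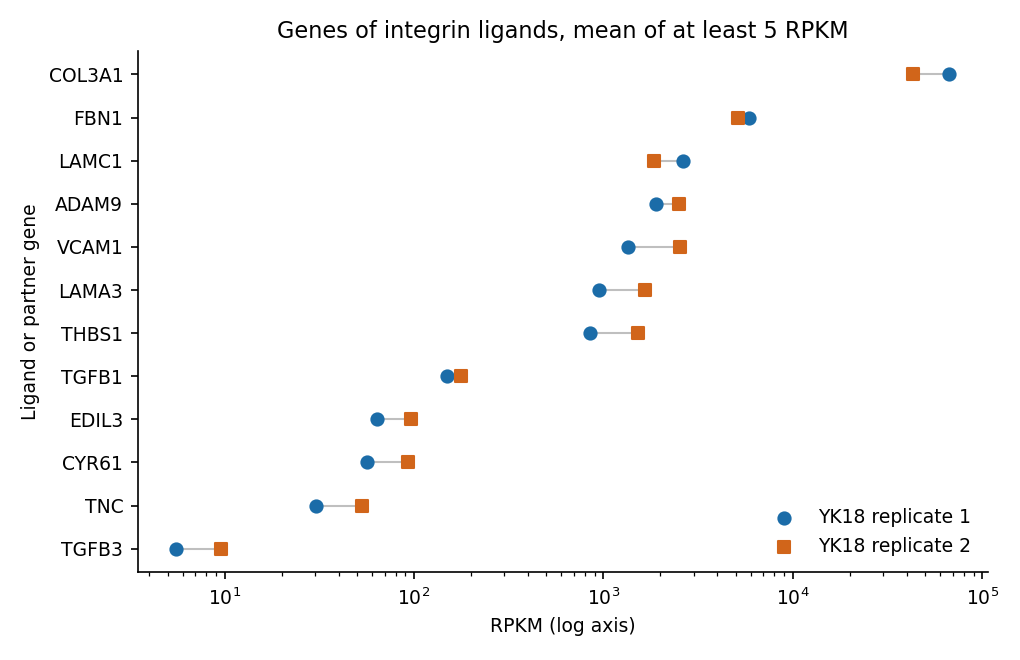
RPKM (log axis) of the ligand genes with a mean of at least 5 RPKM in the YK18 libraries, with circles for replicate 1 and squares for replicate 2. VCAM1 (1345 and 2539 RPKM) lies to the right in replicate 2, and COL3A1 (67098 and 42857 RPKM) lies to the right in replicate 1.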

How the data were processed

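RNA-seq libraries of day 18 endometrium, 1 from each of 2 Yorkshire pigs, were used. Read counting by the authors was with HTSeq, and the deposited values are RPKM, in a column for each library. The aligner, genome build and filters are not given in the sources used here. The labels number the samples 1 and 2, and nothing else was paired.

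The 10 subunits and all gene lists were chosen with earlier results of these data known. RefSeq accessions were matched, version ignored, to the symbols of Sscrofa11.1 (16072 of 38222 mRNA accessions, 42.0%), and no coordinates were printed. Library totals and transcript lengths up to 20000 nt were recovered from the steps of the RPKM values, with the smallest length chosen per transcript so that reads were whole within 1e-06 reads plus 5e-09 of the reads. Such a length was found for 100% of 25584 transcripts. The method was also run on simulated data made with the lengths recovered here. That run therefore cannot show that these lengths are right. Because the values are not counts and there was 1 condition, no model was fitted and no p-value is given. The genes named were the 10 subunits, other subunits above 0, the 5 highest ligand and adaptor genes, those 2-fold apart with a mean of at least 5 RPKM (none were), ligands that define a pair, and markers listed at 0. EEF1A1, EDIL3, LAMA3, MFGE8, LAMB1, COL1A2, CD163, LUM, THY1, EPCAM, PTPRC, IFNG, MS4A1, GP9, CDH1, KRT18, DCN, VIM, FGG, LIMS2, ITGB1BP1, FERMT1, FERMT3 and CAV1 were named after their values were seen. So were CD2, CD3E, CSF1R, NKG7, CD14, THBS1 and TNC. Python 3.11.15, numpy 2.4.6, pandas 2.3.3, scipy 1.17.1 and matplotlib 3.10.9 were used. The alternatives were other pseudocounts, filters, thresholds, scalings, matching of versions and leaving out each library.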

Additional observations from a re-analysis of the deposited data

How the results depend on the processing

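No paired analysis was possible because both libraries are of 1 condition. The count of 7 subunits above 0 was 7 at 1 RPKM and at 10 RPKM and in each library alone, and 5 when the accession version had to match, since ITGA4 and ITGA5 are listed under older versions. The 6 measured pairs were 6 above 0, at 10 RPKM and in each library alone, and 5 at 100 RPKM, a threshold chosen after the data were seen, when ITGB6 dropped out. No subunit differed 2-fold under any pseudocount, filter or scaling tried, and 2 did at 1.5-fold. The median log2 ratio of -0.01 ran from -0.04 with scaling by the 75th percentile to -0.01 with the other settings, and recovered reads gave -0.01. The median level of the 7 subunits, 567 RPKM, was 132.5 after scaling both libraries to sums of 1000000, which lowers every level by construction, and ran from 614 to 630.4 across the values that each left out one replicate. With 2 pigs and lengths known only as the smallest that fit, the order of ITGB5, ITGA4 and ITGB3 is not resolved.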

Other observations

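The genes that link integrins to the cytoskeleton and carry their signals were read from a list of 36 genes. Of these 22 had a listed transcript and 16 were above 0 in either pig. CD47, an integrin-associated membrane protein, was the highest, at 1132 and 1027 RPKM in replicates 1 and 2. RAP1B, a small GTPase of integrin activation, was at 507 and 614 RPKM, and ACTN1, which crosslinks actin, was at 532 and 557 RPKM. The kinase FYN was at 444.6 and 464 RPKM and the tetraspanin CD9 at 362 and 491 RPKM. Of the kindlins, which bind beta chain tails, the epithelial FERMT1 was at 275.3 and 197.4 RPKM in replicates 1 and 2, and the hematopoietic FERMT3 at 103.7 and 131.1 RPKM. CAV1 was at 425.1 and 294.4 RPKM in replicates 1 and 2.

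Of the 15 adaptor genes with a mean of at least 1 RPKM, 2 were 2-fold higher in replicate 2, against 7.48% of matched genes, and none was 2-fold higher in replicate 1, against 3.17%. Both were at low levels, LIMS2 at 2.07 and 6.61 RPKM and ITGB1BP1 at 1.97 and 6.28 RPKM in replicates 1 and 2. The fewest reads that fit were 3 and 9 for LIMS2 and 1 and 3 for ITGB1BP1. The median log2 ratio of the 15 was 0.07, the same to this precision as over all matched genes. ILK, SRC, ZYX, ACTN4, PTK2B and SHARPIN were listed at 0 in both pigs. TLN1, TLN2, FERMT2, PTK2 and PXN were among the 14 genes with no matched transcript, so the talins and the focal adhesion kinase were not measured.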
